A study of Homo sapiens with 6 samples.

Results

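Galectins are small lectins that bind beta-galactosides, the galactose-ended sugars on secreted and cell surface glycoproteins. The genes described are LGALS1, LGALS3, LGALS8, LGALS9 and LGALS3BP, 5 of the 58735 genes in the deposited count table. They were taken by gene name. LGALS9 and LGALS3BP were already known to differ between the study's groups when the 5 were chosen, so the difference between the groups is given below for each of the 5 as a description, with no test. The cells were 786-O, an established human renal cell carcinoma line. One group of 3 libraries (sh-Control) carried a control short hairpin RNA and the other group of 3 (sh-CBX7) a short hairpin RNA against CBX7, a chromobox subunit of Polycomb repressive complexes. The labels give no other difference between the groups, and name neither the hairpin sequences, a time after delivery, nor whether the cells were a clone or a pool. The series title places the work in clear cell renal cell carcinoma and names RNF26, TNF signalling, proliferation and tyrosine kinase inhibitor sensitivity.

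Galectins are made without a signal peptide and act both inside and outside the cell. Outside, they crosslink glycoproteins into lattices that hold receptors at the surface and bind them to matrix. Inside, they bind glycans exposed on broken endosomes and lysosomes and mark them for autophagy. The family is divided into prototype members with a single carbohydrate recognition domain (LGALS1), a chimera member with a collagen-like tail (LGALS3) and tandem-repeat members with a pair of different domains joined by a linker (LGALS8, LGALS9). LGALS3BP is not a galectin. It is a heavily glycosylated secreted protein with a scavenger receptor cysteine-rich domain, and it is a ligand of galectin-3. LGALS9 and LGALS3BP are both known as interferon-inducible genes in many cell types.

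Total counts ran from 16384151 to 18868874 per library, and 14573 genes passed the filter on low counts, the 5 members among them. CBX7 itself had 203, 240 and 183 counts in sh-Control and 143, 111 and 142 counts in sh-CBX7. It fell from 12.2 ± 0.98 to 7.44 ± 0.67 CPM (counts per 1000000 counts, with TMM normalisation; mean ± SD, n = 3), a log2 fold change of -0.71 with a standard error (SE) of 0.13 (edgeR adjusted p = 5.41e-05). Of 13 markers of renal epithelium and renal carcinoma, PAX8, VIM, KRT8 and KRT18 were present in each group. CA9, a marker of clear cell carcinoma, was near 1 CPM, and the proximal tubule genes LRP2 and SLC34A1 were at or near 0. Of the 11 markers that passed the filter, the edgeR test called 4 lower in sh-CBX7 (PAX8, PAX2, CDH6 and CDH16). It called 4 higher (KRT8, KRT18, CDH2 and MME). The log2 fold change of PAX8 was -0.32. In the edgeR test 53.3% of the tested genes were called, 26.1% higher and 27.2% lower in sh-CBX7. Whether the 3 libraries of each group are separate cultures is not stated in the labels. The p-values therefore rest on the spread among these libraries alone, and that spread may be technical.

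Among the 5 members, LGALS9 was much higher and LGALS3BP much lower in sh-CBX7, LGALS8 was somewhat higher, and LGALS1 and LGALS3 had groups that overlapped. The groups did not overlap for 3 of the 5 members, against 59% of all tested genes, and nothing is read from that count because the members were chosen on this contrast. Log2 fold changes are those of the edgeR fit over all tested genes, sh-CBX7 over sh-Control. In bulk RNA a lower level per cell and a smaller share of cells that express a gene cannot be told apart.

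**Figure D1:**
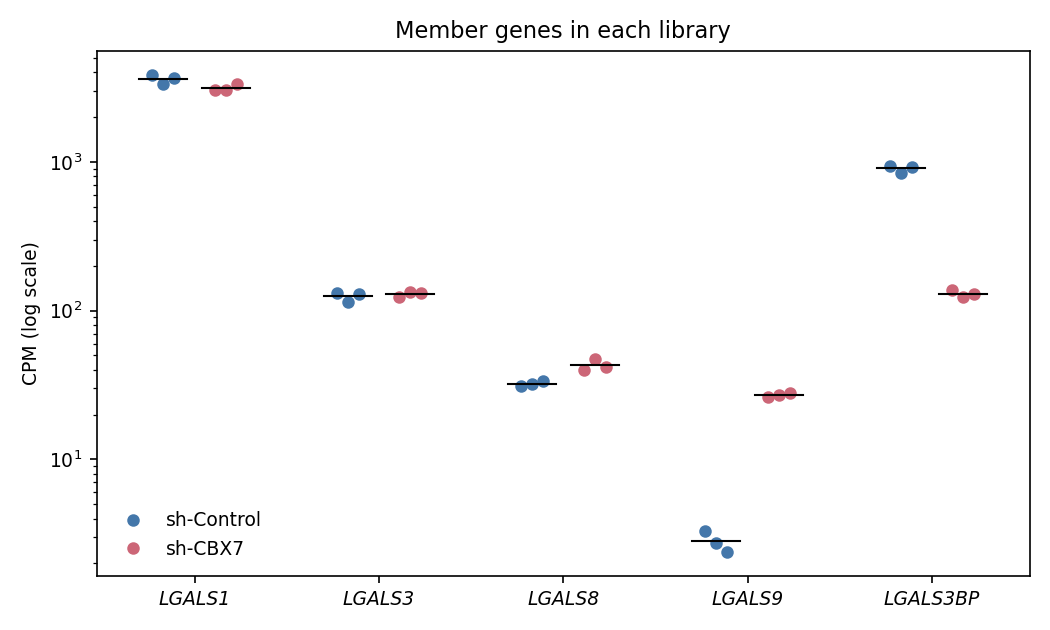
TMM-normalised CPM (log axis) of the 5 genes in each library; points are libraries, blue for sh-Control and red for sh-CBX7, and lines are group means (n = 3). The groups lie apart for LGALS8, LGALS9 and LGALS3BP, with LGALS9 between 2.39 and 3.31 CPM in sh-Control and between 26.2 and 27.9 CPM in sh-CBX7.

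LGALS1 encodes galectin-1, a homodimer secreted by many tumours that induces death of activated T cells. The gene lies on GRCh38 chromosome 22, 37675608 to 37679806, plus strand. It stood at 3867, 3321 and 3656 CPM in the sh-Control libraries and at 3033, 3064 and 3324 CPM in the sh-CBX7 libraries. The sh-CBX7 values were the lower ones except that sh-CBX7 replicate 3 lay just above sh-Control replicate 2. Its log2 fold change was -0.20 (SE 0.06), from 3615 ± 275.7 to 3140 ± 159.5 CPM (SD, n = 3).

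LGALS3 encodes galectin-3, the chimera member, which forms pentamers on glycoproteins and also works in the nucleus and cytoplasm. It lies on chromosome 14, 55124110 to 55145413, plus strand. Its level was 131.8, 115.2 and 129.2 CPM in sh-Control and 124.0, 133.0 and 131.5 CPM in sh-CBX7, so the groups overlapped. The log2 fold change was 0.05 (SE 0.06), and it lay at -0.014 without sh-Control replicate 2, the lowest control library. RNA of galectin-3, a galectin that binds LGALS3BP, was thus at nearly the same level in both groups, 125.4 ± 8.93 and 129.5 ± 4.84 CPM.

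LGALS8 encodes galectin-8, a tandem-repeat member that binds integrins and sialylated glycans and recruits the autophagy receptor CALCOCO2 to damaged vesicles. It lies on chromosome 1, 236518000 to 236552981, plus strand. The sh-Control libraries had 31.3, 32.1 and 33.6 CPM and the sh-CBX7 libraries 40.2, 47.6 and 41.6 CPM. Each sh-CBX7 value was above each sh-Control value, with the widest distance for sh-CBX7 replicate 2. The log2 fold change was 0.41 (SE 0.08), and 40.3% of tested genes had a larger one in size. HEATR1, a ribosome biogenesis gene on the other strand, overlaps LGALS8, and the strand setting of the counting is not given in the sources used here. HEATR1 moved the other way, from 32 ± 1.09 to 16.8 ± 0.98 CPM (edgeR log2 fold change -0.93 ± 0.09 SE, adjusted p = 1.73e-08).

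LGALS9 encodes galectin-9, a tandem-repeat member best known as a ligand of the T cell receptor HAVCR2 (TIM-3). It lies on chromosome 17, 27629798 to 27649560, plus strand. Its counts were 55, 50 and 39 in sh-Control and 494, 452 and 494 in sh-CBX7. In CPM these were 3.31, 2.75 and 2.39 against 26.2, 27.3 and 27.9. The lowest sh-CBX7 library thus lay far above the highest sh-Control library, and the spread within sh-CBX7 was small (coefficient of variation 3.11%, against 16.3% in sh-Control, where counts were low). The means were 2.82 ± 0.46 and 27.1 ± 0.84 CPM, a 9.63-fold difference and a log2 fold change of 3.26 (SE 0.13). Ranked from the largest rise, LGALS9 was number 32 of the 14573 tested genes.

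Near copies of LGALS9 could take some of its reads. Of the 50-base windows of its coding transcript in GENCODE 29 (3114 bases), 17.9% also occurred in transcripts of other genes, namely LGALS9B, LGALS9C, LGALS9DP and AC015688.4, a gene model overlapping LGALS9 on the same strand. LGALS9C had 1, 0 and 0 counts in sh-Control and 2, 1 and 4 in sh-CBX7, and the other 3 had 0 counts in each library. How reads that fit several genes were counted is not given in the sources used here. No 50-base window of the other 4 members' transcripts occurred in another gene's transcripts.

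LGALS3BP lies on chromosome 17, 78971238 to 78980109, minus strand. It had 15740, 15398 and 15159 counts in sh-Control and 2579, 2039 and 2291 counts in sh-CBX7. In CPM it stood at 946.1, 846.6 and 930.2 against 136.9, 123.1 and 129.3. Every sh-CBX7 library was far below every sh-Control library. The means were 907.6 ± 53.4 and 129.8 ± 6.88 CPM, 6.99-fold lower in sh-CBX7, with a log2 fold change of -2.81 (SE 0.06). Ranked from the largest fall, LGALS3BP was number 7 of the 14573 tested genes, and 0.419% of tested genes had a larger log2 fold change in size.

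**Figure D2:**
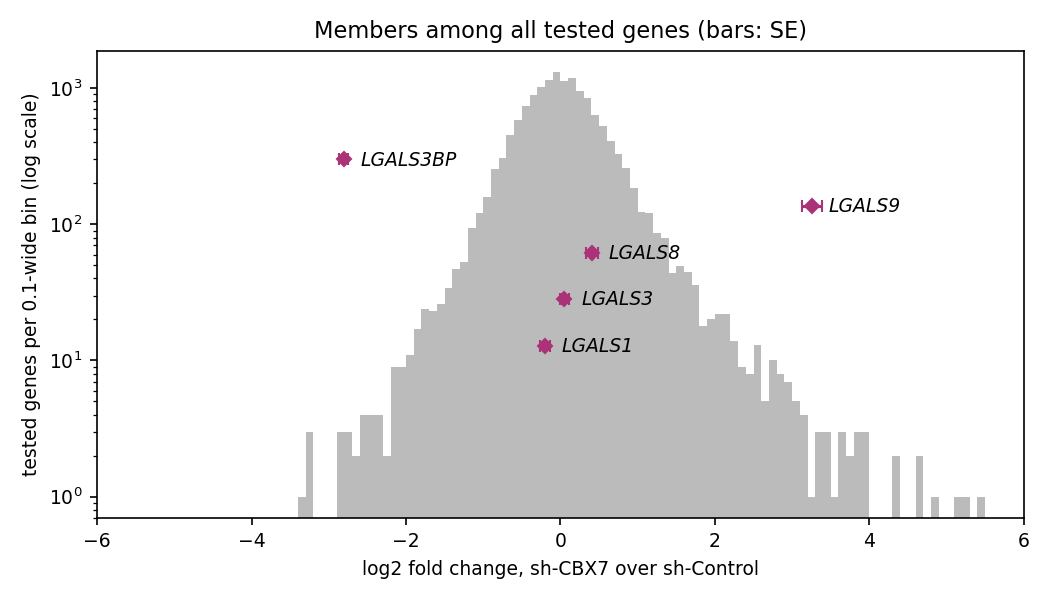
Histogram (grey) of edgeR log2 fold changes, sh-CBX7 over sh-Control, of all tested genes in 0.1-wide bins on a log count axis; diamonds mark the 5 members with their SE, and their height on the axis has no meaning. LGALS3BP at -2.81 and LGALS9 at 3.26 lie in the thin ends, and LGALS1, LGALS3 and LGALS8 lie in the bulk.

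The promoters of LGALS9 and LGALS3BP are shown because both genes are known interferon targets and lay at opposite ends of the contrast. The interferon-stimulated response element, searched on both strands as GAAA, any 2 bases and GAAA again, occurred in both. It was in none of the promoters listed for LGALS3 (1) and LGALS8 (3), and LGALS1 had no entry in the promoter table. The windows below are from RefSeq on GRCh38.p14, 5′ to 3′ on the gene's strand, with the match in capitals:
LGALS9 promoter, chr17:27631088-27631197, plus strand: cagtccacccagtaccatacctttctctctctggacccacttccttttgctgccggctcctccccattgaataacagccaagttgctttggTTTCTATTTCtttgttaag
LGALS3BP promoter, chr17:78979914-78980023, minus strand: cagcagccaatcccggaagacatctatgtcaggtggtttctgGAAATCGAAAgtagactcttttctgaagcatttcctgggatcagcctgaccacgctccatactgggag
In LGALS9 the match (chr17:27631179-27631188) is on the opposite strand and begins 9 bases before the RefSeq transcription start at 27631188, which lies inside the gene's span in the deposited table. In LGALS3BP the match (chr17:78979972-78979981) is on the gene's own strand and begins 58 bases before the start at 78979923. The related gamma-activated site, TTCNNNGAA, was in no member's promoter. A match is a description of the letters and not a measured binding site.

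Of 35116 RefSeq promoters of 300 bases, 3.57% held the interferon-stimulated response element. A promoter was found for 10141 of 12436 tested protein-coding genes (81.5%), and 411 of these other than the members held the motif. Of the 411, 162 (39.4%) rose and 105 (25.5%) fell by the edgeR test. Their median log2 fold change was 0.12. Of 9726 without it, 2530 (26%) rose and 2957 (30.4%) fell, with a median of -0.03. A rise of at least 2 on the log2 scale, as LGALS9 had, was called in 15 of the 411 genes with the motif and in 60 of the 9726 without it, and in 159 of all 14573 tested genes (1.09%). A fall of at least 2, as LGALS3BP had, was called in 1 of the 411 with the motif and in 30 of the 9726 without it, and in 44 of all tested genes (0.302%). The 1 gene was SNRPC, named after its value was seen.

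A stretch of the LGALS3BP coding sequence resembles CBX7. It is shown because the longest run of bases shared by the CBX7 coding sequence and SEC22A, another gene with a large fall, is found in LGALS3BP with 2 mismatches. The stretches are from GENCODE 29 transcripts on GRCh38, 5′ to 3′, with bases that differ from CBX7 in capitals:
CBX7, coding sequence, chr22:39134691-39134706, minus strand: aggagaagctctgctt
SEC22A, 3′ UTR, chr3:123271814-123271829, plus strand: aggagaagctctgctt
LGALS3BP, coding sequence, chr17:78972495-78972510, minus strand: TggagaagctctgcCt
Counted from 1 at the 5′ end of the 16 bases, with the CBX7 base first, the LGALS3BP differences are A1T and T15C. The closest 16-base windows of the other members had 5 mismatches (LGALS3 and LGALS9), 6 (LGALS8) and 7 (LGALS1). The stretch was examined because these genes were known to fall. The sequence of the hairpin is not in the sources used here, and the part of this resemblance in the LGALS3BP level was not tested.

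Among 12423 tested genes with a coding transcript (85.2%), 52 besides CBX7 held the 16 bases with at most 2 mismatches (0.419%). Of the 51 other than LGALS3BP, 26 (51%) fell and 9 (17.6%) rose in the edgeR test. The 26 include SEC22A, which was used to pick the stretch, and HECTD3, so the count is a description. Over all genes with a transcript 29.9% fell and 26.8% rose.

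Levels can be compared between genes only per length, so CPM was divided by the deposited gene length in kilobases. In sh-Control the order was LGALS1 (3289 ± 250.9 CPM per kilobase), LGALS3BP (253.2 ± 14.9), LGALS3 (52.3 ± 3.73), LGALS8 (3.33 ± 0.12) and LGALS9 (0.49 ± 0.0805; SD, n = 3), and neighbours in this order did not overlap. In sh-CBX7 it was LGALS1 (2858 ± 145.2), LGALS3 (54 ± 2.02), LGALS3BP (36.2 ± 1.92), LGALS9 (4.75 ± 0.15) and LGALS8 (4.44 ± 0.41). LGALS9 and LGALS8 overlapped there and could not be ordered. LGALS1 made up 97.7% to 98.4% of the summed level of the 4 galectins in every library, so the sum followed LGALS1.

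The same shift appeared as ratios within each library. LGALS3BP per kilobase was 4.8, 4.92 and 4.82 times LGALS3 in the sh-Control libraries and 0.738, 0.619 and 0.657 times LGALS3 in the sh-CBX7 libraries. RNA of the binding protein was thus above that of galectin-3 in each control library and below it in each sh-CBX7 library. LGALS8 was 5.56, 6.86 and 8.27 times LGALS9 in sh-Control and 0.902, 1.03 and 0.878 times in sh-CBX7. With the length of the chosen coding transcript instead, LGALS3BP still lay above LGALS3 in sh-Control (377.4 against 109.4 CPM per kilobase) and below it in sh-CBX7 (54 against 113.0). By that length LGALS9 lay above LGALS8 in sh-CBX7 (8.71 ± 0.27 against 6.72 ± 0.61). The LGALS9 transcript of 3114 bases has its coding sequence from base 1469. Its base 901 lies at chr17:27630698, before the RefSeq start at 27631188, so its length may not be that of the RNA counted.

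**Figure D3:**
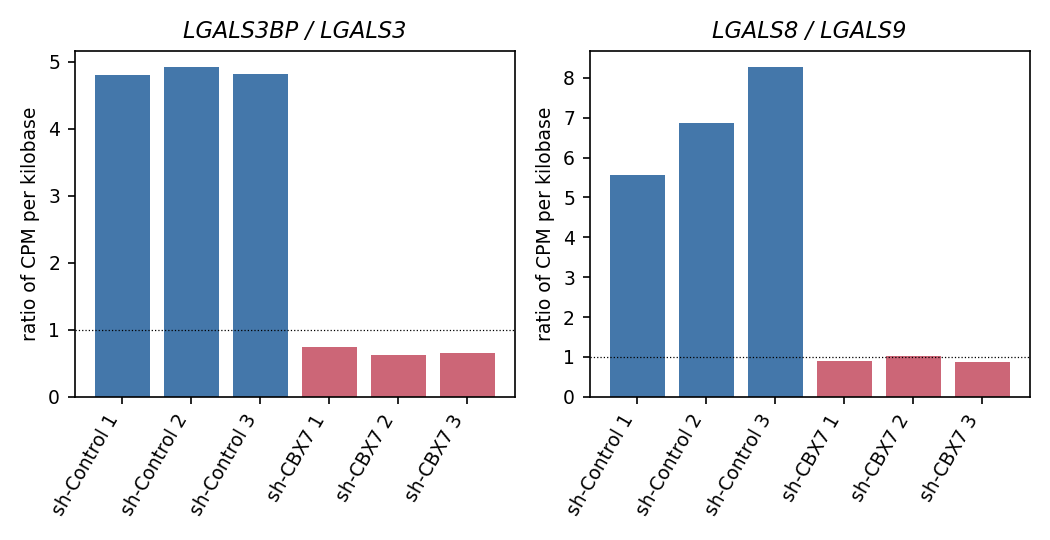
Ratio of CPM per kilobase of deposited gene length within each library, for LGALS3BP over LGALS3 (left) and LGALS8 over LGALS9 (right); blue bars are sh-Control, red bars sh-CBX7, and the dotted line marks equal levels. The left ratio is 4.8 to 4.92 in sh-Control and 0.619 to 0.738 in sh-CBX7.

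The remaining family was almost silent. Of 17 other rows of the count table named LGALS, CLC or GRIFIN, 8 had 0 counts in all libraries and 8 had between 1 and 37 counts over the 6 libraries and did not pass the filter. The rows at 0 included CLC (galectin-10), LGALS7, LGALS13, LGALS14 and LGALS16. A count of 0 allows up to 3 counts per library, or 0.16 to 0.18 CPM, for counting error only. LGALSL, a galectin-like gene without known lectin activity, was the 1 row that passed the filter, at 5.8 ± 0.49 CPM in sh-Control and 5.33 ± 1.1 CPM in sh-CBX7 (edgeR log2 fold change -0.12 ± 0.17 SE, adjusted p = 0.572). LGALS2 had 3, 16 and 9 counts in sh-Control and 3, 3 and 3 in sh-CBX7, and LGALS12 had 1, 1 and 1 against 6, 2 and 9.

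Galectins are also abundant in macrophages and other blood cells, so immune markers were examined beside LGALS9 and LGALS3BP. Of 14 immune markers, 2 passed the filter, CD14 and CSF1R. PTPRC, CD3E, CD2 and MS4A1 were at 0 in each library. The summed level of the 14 ran from 9.02 to 9.57 CPM in sh-Control and from 17.3 to 21 CPM in sh-CBX7, and most of it was CSF1R, which rose from 7.16 ± 0.51 to 16.4 ± 1.21 CPM (log2 fold change 1.19, edgeR adjusted p = 2.13e-08). CD14 went from 1.62 ± 0.39 to 1.36 ± 0.46 CPM without a call. FCER1G, which did not pass the filter, went from 0.18 ± 0.16 to 0.62 ± 0.50 CPM. PTPRC and CD68, which mark leukocytes and macrophages, were at or near 0 in both groups. The macrophage scavenger receptor MSR1, which is on another list, rose, as given below. Of 6 endothelial markers, 1 passed the filter, PECAM1, which rose from 1.47 ± 0.35 to 2.38 ± 0.23 CPM (edgeR log2 fold change 0.70 ± 0.27 SE, adjusted p = 0.0349), and CDH5 was at 0. The summed level of the 6 ran from 1.92 to 2.76 CPM in sh-Control and from 2.6 to 4.35 CPM in sh-CBX7. The part of cells expressing CSF1R or PECAM1 in the LGALS9 level was not tested.

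The genes whose profile was closest to each member were found from log2 CPM relative to the gene's own sh-Control mean, over the 6 libraries and 11938 other protein-coding genes, by the root mean square difference. LGALS9 was closest to CXCL11, a chemokine for T cells induced by interferon (difference 0.106), which rose from 1.96 ± 0.29 to 19.7 ± 0.96 CPM (edgeR log2 fold change 3.33 ± 0.15 SE, adjusted p = 1.76e-14). SPOCD1 (0.233) and the steroid enzyme gene HSD17B6 (0.240) came next, and CXCL11 was the 1 gene within 0.2. LGALS3BP was closest to SNRPC (0.063), a U1 splicing particle protein that fell from 227.9 ± 9.6 to 34.3 ± 3.1 CPM, then to the ubiquitin ligase HECTD3 (0.071) and to SEC22A (0.138), a vesicle transport gene. These 3 genes were the only ones within 0.2 of LGALS3BP. HECTD3 also held the 16-base stretch within 2 mismatches (T12C and T16A), whereas the closest window of SNRPC had 6.

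LGALS1, LGALS3 and LGALS8 had profiles close to those of many genes. Within 0.2 there were 3665 genes for LGALS1, 4049 for LGALS3 and 2258 for LGALS8. The closest were NDUFV1, ASNA1 and SMARCB1 to LGALS1, DOK4, ALDH7A1 and ARPC4 to LGALS3, and USP42, CHMP3 and INSIG2 to LGALS8, at differences of 0.019 to 0.037.

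Genes beside LGALS9 and LGALS3BP on the chromosome did not share their size of change. The nearest tested protein-coding genes were taken on each side, a choice made after the members' values were seen. Beside LGALS3BP, CANT1 at 11.6 kb rose by 0.46 (SE 0.06, edgeR adjusted p = 7.56e-07) and the metalloproteinase inhibitor TIMP2 at 45.9 kb rose by 0.27 (SE 0.06, edgeR adjusted p = 0.000302), both opposite to LGALS3BP. Beside LGALS9, KSR1 at 3.36 kb had a log2 fold change of -0.32 (edgeR SE 0.12, adjusted p = 0.0268), a call lost under 5 of 12 alternatives, and LYRM9 at 229 kb had -0.43 (SE 0.48, edgeR adjusted p = 0.476). Beside LGALS1, NOL12 at 1.87 kb fell by 0.76 on the log2 scale and PDXP at 8.67 kb rose by 0.69. Beside LGALS3, the mitotic gene DLGAP5 at 2.7 kb fell by 0.55 on the log2 scale, and MAPK1IP1L at 53.9 kb had a log2 fold change of -0.22, a call lost under several alternatives. Beside LGALS8, EDARADD at 15.1 kb had a log2 fold change of 0.25 without a call and ACTN2 at 133 kb one of 0.76, a call also lost under some alternatives.

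Galectins act through the glycans of other proteins, and 6 further lists of genes around them were examined, with 158 genes in all once the 13 other galectin genes are counted. Of the 129 that passed the filter, 65 rose (50.4%) and 24 fell (18.6%) in the edgeR test. Of all tested genes, 26.1% rose and 27.2% fell. The median log2 fold change of the 129 was 0.23, against -0.006 for all tested genes. The interferon list, given last, held 30 of the 129, with 27 of the 65 rises and 1 of the 24 falls. Its median was 1.52, so the values for the 129 together rest in large part on it. The lists were chosen with earlier results of these data known.

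**Figure D4:**
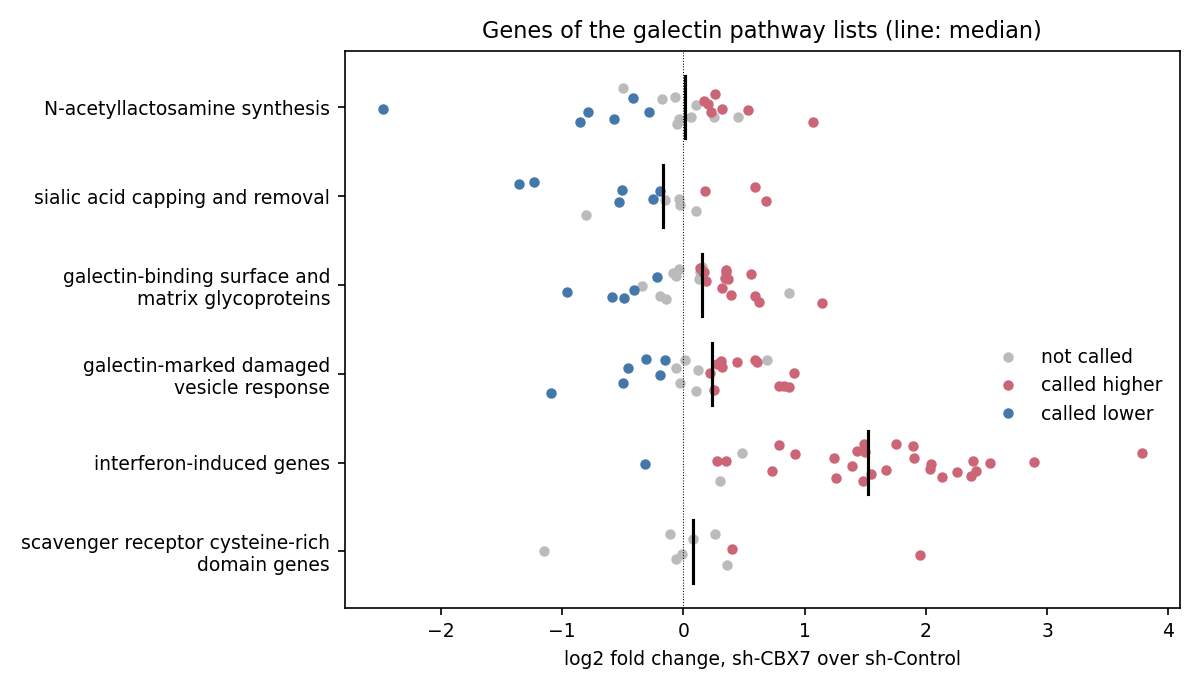
EdgeR log2 fold changes, sh-CBX7 over sh-Control, of the tested genes in 6 lists; each point is a gene, red if called higher, blue if called lower and grey if not called in the edgeR test, with random vertical spread, and black lines are list medians. The interferon list has its median at 1.52, and the other 5 medians lie between -0.17 and 0.23.

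Of 22 tested enzymes and carriers that build N-acetyllactosamine, the preferred galectin ligand, 7 rose and 6 fell (median 0.01). These are 31.8% and 27.3%, near the 26.1% and 27.2% of all tested genes, and 2 were called higher without sh-CBX7 replicate 2. B4GALT1, which adds the galactose of N-acetyllactosamine, fell from 131.1 ± 2.91 to 23.4 ± 2.87 CPM (edgeR log2 fold change -2.48 ± 0.08 SE, adjusted p = 3.9e-17). The N-glycan branching enzyme MGAT5 fell by 0.79 on the log2 scale, the core 2 O-glycan enzyme GCNT1 by 0.85 and the UDP-galactose transporter SLC35A2 by 0.57. MGAT4B, another branching enzyme, rose from 295.4 ± 19.8 to 618.1 ± 25.6 CPM (edgeR log2 fold change 1.07 ± 0.06 SE, adjusted p = 6.86e-13).

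Sialic acid on the terminal galactose can block the binding of some galectins, whereas galectin-8 binds sialylated glycans. Of 14 tested genes for its synthesis, transfer and removal, 3 rose and 6 fell (median -0.17), or 21.4% and 42.9% against 26.1% and 27.2% of all tested genes. GNE, the first enzyme of sialic acid synthesis, fell from 34.5 ± 1.24 to 13.4 ± 0.77 CPM (edgeR log2 fold change -1.36 ± 0.09 SE, adjusted p = 4.6e-11). ST3GAL5, which makes the ganglioside GM3, fell by 1.23 and ST3GAL2 by 0.51 on the log2 scale. The sialidase NEU1 rose from 108.4 ± 8.73 to 163.1 ± 2.13 CPM (log2 fold change 0.59), and ST3GAL6 rose by 0.68. The sialyltransferase ST6GAL1, named after its value was seen, had a log2 fold change of -0.15 without a call.

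Glycoproteins that bind galectins at the surface and in the matrix rose in 14 of 29 tested and fell in 5 (median 0.15), or 48.3% and 17.2% against 26.1% and 27.2% over all tested genes. The fibronectin receptor chain ITGA5 rose from 383.7 ± 7.85 to 847.8 ± 1.95 CPM (edgeR log2 fold change 1.14 ± 0.05 SE, adjusted p = 1.57e-14). TGFBR2 rose by 0.59, CD40 by 0.62 and SLC3A2, the CD98 heavy chain and a galectin-3 ligand, by 0.56. The adhesion molecule MCAM, a galectin-1 ligand, fell by 0.96 on the log2 scale. HAVCR2, the receptor for galectin-9, was named after its value was seen and had a log2 fold change of 0.15 without a call.

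Genes that respond to galectin-marked vesicles rose in 12 of 24 tested and fell in 6 (median 0.23). Of the list, 50% rose, against 26.1% of all tested genes, and 25% fell, near the 27.2% of all. The autophagy receptors OPTN and SQSTM1 rose from 141.5 ± 7.11 to 265.4 ± 8.24 CPM and from 625.7 ± 47.2 to 1145 ± 39.1 CPM, log2 fold changes of 0.91 and 0.87. MAP1LC3B, the autophagosome protein LC3B, rose by 0.83 and the membrane scission protein CHMP4B by 0.59, while GABARAPL1, a relative of LC3B, fell by 1.09 on the log2 scale (edgeR adjusted p = 7.52e-12). CALCOCO2, the receptor that galectin-8 recruits and named after its value was seen, rose by 0.22.

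LGALS3BP shares its cysteine-rich domain with scavenger receptors and some lysyl oxidase relatives. Of 9 tested genes in this list, 2 rose by the edgeR test (22.2%, against 26.1% of all tested genes). In the same test 0 fell, against 27.2% of all tested genes. However, the list held LOXL1, which lacks the domain. Without LOXL1, 1 of 8 rose (median 0.04), and SSC4D was called lower without sh-Control replicate 2. MSR1, a macrophage scavenger receptor, rose from 1.34 ± 0.65 to 5.29 ± 0.26 CPM (edgeR log2 fold change 1.95 ± 0.25 SE, adjusted p = 8.97e-07). LOXL1 rose by 0.40. LOXL2, a lysyl oxidase relative that carries the domain, had a log2 fold change of -0.06 at 790.1 ± 27.6 and 758.2 ± 11.5 CPM.

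Interferon-induced genes rose in 27 of 30 tested (90%, against 26.1% of all tested genes) and 1 fell by the edgeR test. The list's median log2 fold change was 1.52. OAS1, which makes the activator of RNase L, rose from 44 to 254.5 CPM, the ubiquitin-like modifier ISG15 rose by 2.39 on the log2 scale, IFI27 by 2.13 and IFI6 by 2.04. LGALS9, at 3.26, was above each of them except IFITM1 at 3.78. LGALS3BP, at -2.81, lay on the other side of 0 from the list's median. The part of the interferon-induced genes' rise in the LGALS9 level was not tested.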

How the data were processed

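Polyadenylated RNA of 786-O cells was sequenced in 6 libraries from a directional kit, per the labels' protocols. The deposited table holds whole-number read counts per gene, which were used without change. The authors used HISAT2 2.0.5, featureCounts 1.5.0-p3, Trimmomatic and FastQC to make these counts, per the submitters' processing notes. Order, settings and strand are not given in the sources used here. The notes name hg19, whereas all 58735 genes of the deposited table have the start and end of GENCODE 29, so positions are on GRCh38. Columns named siCBX7 were matched to the sh-CBX7 libraries by target and number.

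Genes were filtered with filterByExpr, normalised with TMM and compared by edgeR 4.0.16 (R 4.3.3; glmQLFit, glmQLFTest, unpaired), with Benjamini-Hochberg adjustment and calls below 0.05. The SE is the log2 fold change over the square root of F. On simulated counts for 14573 genes in this comparison, the test called 68% of 100 genes changed by 0.5, 89% of 100 changed by 1 and 0.0557% of unchanged genes. The simulation left 14373 genes unchanged, whereas 53.3% of the real genes were called, so its rates may not hold for the real comparison. Within groups, chi-square per gene was 2.85 to 9.23 between libraries, a spread beyond counting error, and each was kept as a sample. It cannot tell separate cultures from separate library preparations. The pairs with sh-Control replicate 1 had the highest values (9.23 and 5.78), against 2.85 between sh-Control replicates 2 and 3.

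The members and lists were chosen with earlier results of these data known. Named were the members, CBX7, other tested galectin genes, up to 5 genes of smallest p in each list and the 3 nearest profiles per member (log2 CPM, prior count 2, genes of at least 1 CPM). Alternatives were DESeq2 size factors, upper quartile normalisation, no low count filter, DESeq2 1.42.0, limma voom 3.58.1, a replicate block and leaving out each library; transcript length per kilobase and the cysteine-rich list without LOXL1 were added after seeing the data. The coding transcript of a gene was the basic one of best APPRIS rank, then longest coding sequence.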

Additional observations from a re-analysis of the deposited data

How the results depend on the processing

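Over the 12 alternative fits the log2 fold change ranged from 3.16 to 3.39 for LGALS9, from -2.86 to -2.77 for LGALS3BP without 1 library and -2.81 to -2.76 otherwise, from 0.34 to 0.46 for LGALS8, from -0.26 to -0.15 for LGALS1 and from -0.014 to 0.096 for LGALS3. CBX7 kept its call, at -0.77 to -0.65. Genes called higher numbered 3347 to 4312 and lower 3445 to 4126, with the pathway lists at 58 to 68 higher and 21 to 26 lower. A replicate block gave 3972 genes higher and 4126 genes lower and changed no call of CBX7. Deviations from the group means correlated between same-numbered libraries at 0.055, 0.061 and 0.035, below the 0.1 set for a pairing, and each correlated best with its own number. For 45 of 56 other named genes, neither direction nor call changed in any of these fits. ACTN2, ASNA1, KSR1, MAPK1IP1L and SMARCB1 lost a call, EDARADD and SSC4D gained one, and 4 uncalled genes changed sign. The per-kilobase levels moved with the length used. Counts limit LGALS9 in sh-Control, at 39 to 55 per library.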
